A study of Mus musculus with 4 samples.

Results

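The TALE cofactors of Hox proteins were followed here through H3K27ac, the acetyl mark on lysine 27 of histone H3 that active promoters and enhancers carry, in mouse bone marrow cells. The 8 genes are Meis1, Meis2, Meis3, Pbx2, Pbx3, Pbx4, Pknox1 and Pknox2, all genes of the TALE homeodomain class, among 21887 protein-coding genes of the RefSeq table. The regions counted for a gene are the peaks that reach into its RefSeq span with 10 kb added on each side, and a wider window of 100 kb on each side was read as well. This gave 12 regions of the 28343 in the control-labelled list and 7 of the 19148 in the BN1-labelled list. The library labelled control came from cKit(+) cells, and the one labelled BN1 from cKit(+) cells carrying BRD9-NUTM1, a leukaemia fusion of a chromatin remodelling subunit with a testis protein that binds an acetyltransferase. For both, the labels give the strain as C57BL/6, the tissue as bone marrow and the cells as CD45.2-positive, where cKit is a receptor tyrosine kinase that early blood progenitors display and CD45.2 an allelic form of a pan-leukocyte surface protein. The age of the mice, the way the fusion was introduced and the number of animals are not given in the labels.

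Each group is a single ChIP library without replicates, so lengths and folds are descriptions of these 2 libraries. Peak names and sample titles go against each other, since the control sample holds peaks called BRNU and the BN1 sample holds peaks called BM, abbreviations left unexplained by the submitters. The extract protocol also names BN1 cells for every sample. The titles decide the groups here, hence the names control-labelled and BN1-labelled list. Had the lists been exchanged, every direction below would turn.

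MEIS, PBX and PKNOX (also called PREP) proteins are homeodomain transcription factors set apart by a loop of extra residues in the homeodomain, which gives the family its name, TALE. PBX proteins bind DNA together with HOX proteins, and MEIS and PKNOX proteins bind PBX through their N-terminal part and so bring it to the nucleus and to DNA. In blood, Meis1 is active in stem and early progenitor cells and is switched off as cells mature, and together with Hoxa9 and Pbx3 it is a well known driver of acute myeloid leukaemia, above all of leukaemias with MLL fusions.

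Regions in the control-labelled list alone were found in the Meis branch. All of the 3 Meis genes had acetylated regions in the control-labelled list and none in the BN1-labelled list, a pattern found for 8.15% of all protein-coding genes. Pbx2, Pbx3 and Pknox1 had regions in both lists (50.2% of all genes). Pbx4 had a region in the BN1-labelled list only (3.81% of all genes), and Pknox2 had one in neither (37.8%). The members were chosen with earlier results in view, so these shares are set beside each other without a test. Counting only regions within 1 kb of either gene end placed every member in the same class, against 6.62% of all genes with such a region in the control-labelled list only, 3.23% in the BN1-labelled list only, 38.4% in both and 51.8% in neither.

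**Figure D1:**
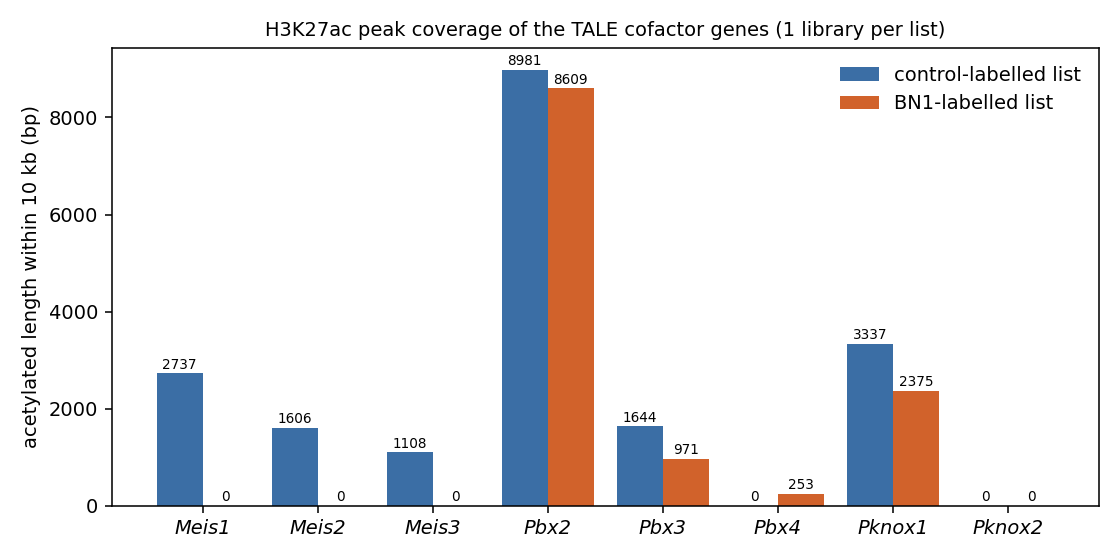
Acetylated length, the bp covered by peaks within the gene span and 10 kb on each side, for each of the 8 genes in the control-labelled list (blue) and the BN1-labelled list (orange), with 1 library per list and therefore no error bars. The 3 Meis genes have blue bars alone, at 2737, 1606 and 1108 bp, whereas Pbx2, Pbx3 and Pknox1 have both.

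The start regions of 4 members are printed to show which promoter letters lay under the peaks and, for Meis2, between them. These are RefSeq promoter sequences of build GRCm38.p6, the same assembly as mm10, running from 250 bases before the annotated start to 50 bases from it on and written 5′ to 3′ in the direction of the gene. Capitals mark the motifs searched on both strands, which were ACTTCCGG (the core bound by ETS factors), CCAAT (NF-Y), GGGCGG (Sp and KLF factors), TGACAG (MEIS and PKNOX), TGATNNAT (PBX with HOX) and TGACGT (CREB). No marked matches overlap each other. The table held 5 of the 8 members, and the promoters of Pbx3, Pknox1 and Pknox2 were not analysed here.
Meis1 (chr11:19018920-19019219, minus strand): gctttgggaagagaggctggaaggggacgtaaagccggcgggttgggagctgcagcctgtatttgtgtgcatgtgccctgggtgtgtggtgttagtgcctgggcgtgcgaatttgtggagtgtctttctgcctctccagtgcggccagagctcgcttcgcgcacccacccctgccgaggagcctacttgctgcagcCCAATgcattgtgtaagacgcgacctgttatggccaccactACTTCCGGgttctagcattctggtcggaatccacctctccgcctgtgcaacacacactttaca
Meis2 (chr2:116064570-116064869, minus strand): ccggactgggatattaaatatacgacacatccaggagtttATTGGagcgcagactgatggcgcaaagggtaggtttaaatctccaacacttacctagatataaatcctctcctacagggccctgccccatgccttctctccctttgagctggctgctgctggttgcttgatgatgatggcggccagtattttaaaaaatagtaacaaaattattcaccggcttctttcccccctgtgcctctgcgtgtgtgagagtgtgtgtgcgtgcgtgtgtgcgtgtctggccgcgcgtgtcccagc
Meis3 (chr7:16175145-16175444, plus strand): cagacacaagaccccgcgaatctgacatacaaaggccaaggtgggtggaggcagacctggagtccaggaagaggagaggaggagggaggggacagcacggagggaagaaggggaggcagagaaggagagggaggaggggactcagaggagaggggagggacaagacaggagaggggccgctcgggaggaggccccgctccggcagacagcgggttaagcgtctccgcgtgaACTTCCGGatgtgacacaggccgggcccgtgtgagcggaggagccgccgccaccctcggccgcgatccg
Pbx2 (chr17:34592009-34592308, plus strand): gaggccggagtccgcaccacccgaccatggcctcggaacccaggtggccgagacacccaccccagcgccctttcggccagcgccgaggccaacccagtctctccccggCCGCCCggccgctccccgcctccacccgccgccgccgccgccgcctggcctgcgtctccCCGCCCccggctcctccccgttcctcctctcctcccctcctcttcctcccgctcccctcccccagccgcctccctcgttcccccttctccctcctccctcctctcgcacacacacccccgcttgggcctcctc

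The control peaks of Meis1 and Meis3 covered all 300 bases of these windows, and no BN1 peak reached either of them. The Pbx2 window lay wholly under a peak in both lists. The Meis2 window lay under no peak, since it sits in the gap between 2 control peaks. The annotated start used for Meis2 lies inside the RefSeq gene span, and the larger of these peaks stands at the upper end of that span. Over all 32851 promoter windows of the table, 5.84% held a control region only, 2.93% a BN1 region only and 25.8% both, while 65.4% held neither, as in Meis2 and Pbx4.

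Meis1 and Meis3 share an ETS core, ACTTCCGG, on the coding strand and close to the start. Its first base stands at position -13 in Meis1 and at -19 in Meis3, with the annotated start as position 0. This core occurs in 3.89% of all promoter windows, and none of the other 3 members with a sequence holds it. CCAAT occurs in Meis1 and Meis2 with 1 match each and in Pbx4 with 2, and in 37.4% of all windows. GGGCGG has 2 matches in Pbx2 and none in the other 4 members, against 35.7% of all windows. TGACAG (19.2% of all windows), TGATNNAT (8.85%) and TGACGT (7.51%) were not found in these 5 windows. The letters describe the sequence and are not evidence of binding, and the motifs were chosen after the Meis1 sequence had been seen.

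The promoter windows of the Meis genes had a lower ratio of observed to expected CpG than those of Pbx2 and Pbx4. This ratio was 0.589 in Meis1, 0.666 in Meis2 and 0.688 in Meis3, against 0.882 in Pbx2 and 0.799 in Pbx4. The plain count of CpG did not follow this order throughout, with 21 in Meis3 and 19 in Pbx4. GC content was 58.3%, 51.0%, 66.7%, 76.0% and 59.3% in the same order. Over all windows the median CpG ratio was 0.836 where both lists had a region, 0.601 where the control list alone had one, 0.609 where the BN1 list alone had one and 0.245 where neither did. Among the 10995 windows with a CpG ratio of at least 0.6 and a GC content of at least 50%, 62.1% held a region in both lists and 8.16% in the control-labelled list only. Meis2 and Meis3 belong to these windows, while Meis1 falls just short on the CpG ratio.

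Meis1, the best known leukaemia gene of the family, had 2 peaks and 2737 bp in the control-labelled list and none in the BN1-labelled list. The main peak, chr11:19018225-19020514, is 2290 bp wide, covers the start and runs upstream of it. Its summit lies 1021 bp before the annotated start and 339 bp beyond the upper end of the gene span. The authors' fold enrichment at that summit was 7.75, which is at percentile 58.9 of the list, and its −log10 q was 13.9. The peak also reaches the end of a noncoding gene, Gm16141. The second peak lies 2191 bp beyond the far end of the gene and is weak, with a width of 447 bp and a fold of 3.15 at percentile 3.55. It lies 181 bp from the noncoding gene 8430419K02Rik, so it need not belong to Meis1.

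The whole neighbourhood of Meis1 was empty in the BN1-labelled list. The nearest ones lay 926.5 kb below and 899.8 kb above the gene, which leaves a stretch of 1966 kb without a called region. In the control-labelled list the next peak above the gene was 283.3 kb away. A peak-free stretch of at least 1 Mb is common, since 16.5% of all protein-coding genes lie in one in the BN1-labelled list and 13.6% in the control-labelled list. Of the 3613 genes in such BN1 stretches, 288 (7.97%) carried a control peak on the gene, and Meis1 and Meis2 are among them.

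Meis2, a Meis1 paralogue with roles in limb, heart and nerve development, had 2 control peaks and 1606 bp, and none in the BN1-labelled list. The larger, chr2:116066066-116067401, is 1336 bp wide with a fold of 7.95 (percentile 59.9) and a −log10 q of 15.7. It lies at the upper end of the gene, with its summit 2290 bp upstream of the annotated start, and overlaps the noncoding gene G630016G05Rik, so it cannot be assigned to one of them. The smaller has its summit 251 bp downstream of the annotated start, a width of 270 bp and a fold of 3.99 (percentile 15.8). In the BN1-labelled list the surrounding stretch without a peak was 1390 kb long.

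Meis3, the third gene of the branch, had the strongest region of the branch. Its single control peak, chr7:16174729-16175836, is 1108 bp wide with a fold of 13.01 (percentile 79.8) and a −log10 q of 36.4, and its summit lies 139 bp downstream of the annotated start. No peak was called there in the BN1-labelled list, although BN1 peaks stood 53.9 kb below and 35.1 kb above the gene, at other genes. The Meis3 peak is thus the one of the branch that lies among neighbours with regions in both lists.

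Peak strength bears on how often a control peak was also found in the other list. Of control peaks with a fold of 6.58 to 7.99, the band that holds the main Meis1 and Meis2 peaks, 38.7% overlapped a BN1 peak. In the band of Meis3, from 10.1 to 13.1, 63.7% did. An unshared peak of the strength at Meis1 or Meis2 is therefore common in this list, and one of the strength at Meis3 is less so. When each list was limited to its top 10000 peaks, Meis1 and Meis2 had no region in either list and Meis3 kept its control peak.

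**Figure D2:**
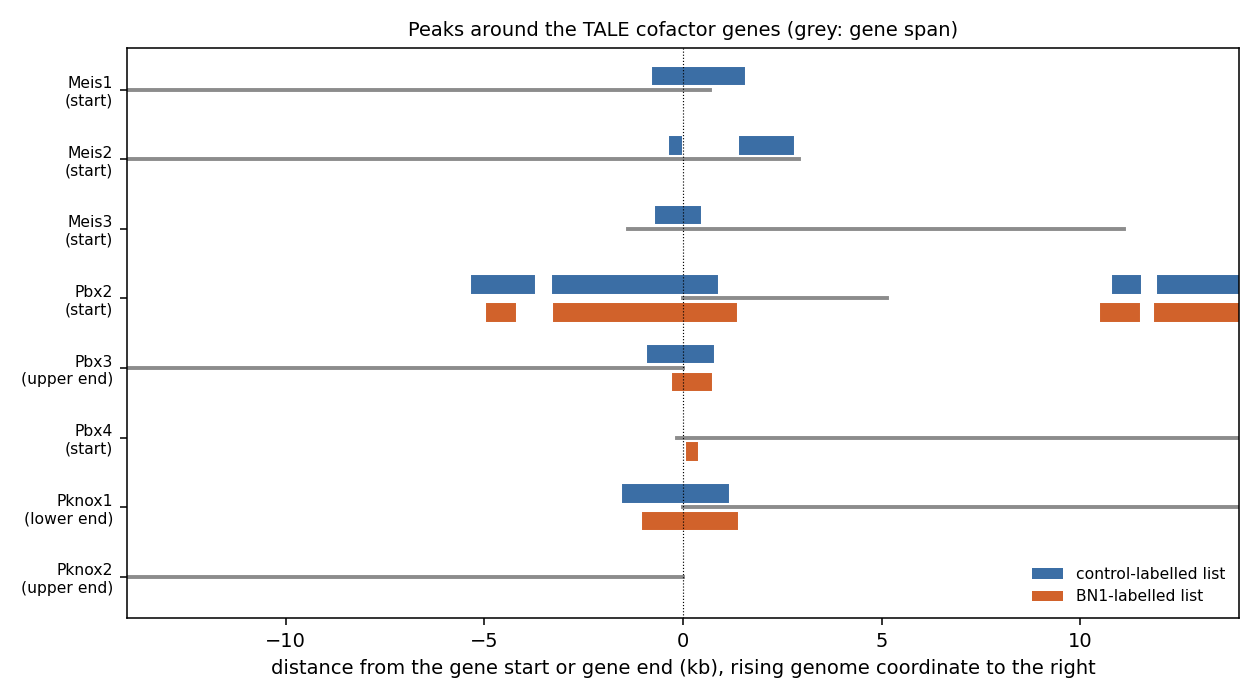
Peaks of the control-labelled list (blue) and the BN1-labelled list (orange) around each gene, plotted as distance in kb from the annotated start or, where no start was given, from a gene end, with the gene span in grey. Peaks of the 3 Meis genes are blue alone, and those of Pbx2, Pbx3 and Pknox1 are stacked in both colours.

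Pbx3, the PBX protein most often linked with Hoxa9 and Meis1 in leukaemia, had 1 region in each list at the upper end of the gene and none elsewhere along its 200589 bp. The control peak, chr2:34371171-34372814, is 1644 bp wide with a fold of 7.19 (percentile 54.8 of its list). The BN1 peak, chr2:34371791-34372761, is 971 bp wide with a fold of 12.2 (percentile 73.8 of its list). It lies wholly inside the control peak and covers 59.1% of it, and the summits are 88 bp apart. The covered length was thus longer in the control-labelled list by 673 bp, but as a share of all covered length the lists gave nearly equal values, 53.0 bp per Mb labelled control and 50.8 labelled BN1.

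Pbx2, a broadly expressed member of the branch, had the longest coverage, 8981 bp in the control-labelled list and 8609 bp in the BN1-labelled list, each in 4 peaks that were all shared. Most of it need not be its own, because Pbx2 is a gene of 5142 bp in the densely packed class III part of the major histocompatibility complex. The peak over its start, chr17:34588977-34593112 in the control-labelled list and chr17:34589007-34593598 in the BN1-labelled list, also reaches the ends of Gpsm3 and Notch4, and its summits lie 2843 and 2272 bp upstream of the Pbx2 start. The folds of that peak were 10.025 and 12.999. The other 3 pairs lie at ends of Notch4, Rnf5 and Agpat1. Within the Pbx2 span alone the order turned, with 854 bp in the control-labelled list and 1340 bp in the BN1-labelled list, and per Mb of covered length the wider window turned as well, with 289.4 against 450.2.

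Pbx4, which is expressed mainly in testis, was the member with a region in the BN1-labelled list alone. This was the smallest of the 7 BN1 regions, 253 bp wide with a fold of 3.96 (percentile 15.3) and a −log10 q of 5.21, and its summit lies 229 bp downstream of the annotated start. In the control-labelled list no peak was found within 22.9 kb of the gene. The region was lost at a −log10 q of at least 10, which then left no member with a BN1 region alone. It was also lost when each list was limited to its top 10000 peaks, and Pbx3 became the 1 member with a BN1 region alone.

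Pknox1 (PREP1), a broadly expressed partner of PBX, carried the strongest peaks of the family in both lists. The control peak at its lower end, chr17:31563211-31565867, is 2657 bp wide with a fold of 35.6 (percentile 98.8), and the BN1 peak, chr17:31563711-31566085, is 2375 bp wide with a fold of 23.1 (percentile 89.2). They share 2157 bp, which is 81.2% of the control peak and 90.8% of the BN1 peak. A second control peak of 680 bp lies inside the gene, 30323 bp from its lower end, with a fold of 8.504, and has no counterpart in the BN1-labelled list. The total length was 3337 bp against 2375 bp, a difference that turned per Mb of covered length, with 107.5 labelled control and 124.2 labelled BN1.

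Pknox2 (PREP2), the more tissue-restricted paralogue, had no region within 10 kb in either list. It is the longest member at 256364 bp, and it lay in a stretch without a peak of 410.1 kb in the control-labelled list and 410.4 kb in the BN1-labelled list. The peaks nearest to it on either side lie at ends of Ei24 and Tmem218, and each overlaps a peak of the other list.

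**Figure D3:**
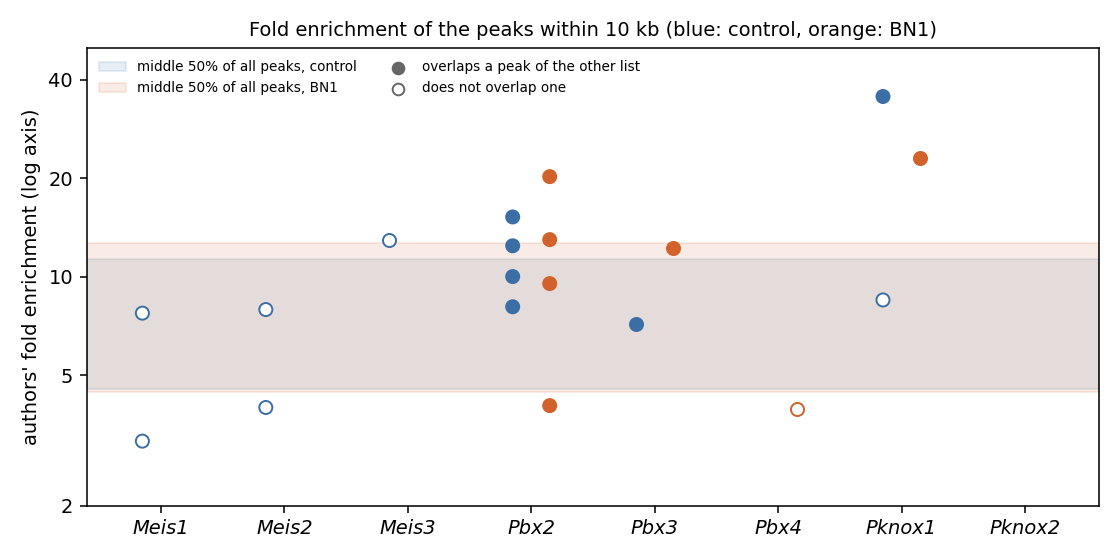
The authors' fold enrichment at the summit of every peak within 10 kb of each gene, on a log axis, in the control-labelled list (blue) and the BN1-labelled list (orange), where filled points overlap a peak of the other list and open points do not, and shaded bands mark the middle 50% of all peaks of each list. The Meis peaks are open throughout, with folds from 3.15 to 13.01, and Pknox1 has the highest points of either colour, at 35.6 and 23.1.

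Ordered by acetylated length in the control-labelled list, the genes ran Pbx2, Pknox1, Meis1, Pbx3, Meis2, Meis3, with Pbx4 and Pknox2 at 0. In the BN1-labelled list they ran Pbx2, Pknox1, Pbx3, Pbx4, with the 3 Meis genes and Pknox2 at 0. With 1 library each, it cannot be said which neighbours in these orders differ beyond replicate error. In bp, 6 members were longer in the control-labelled list (43.9% of all genes) and 1 in the BN1-labelled list (18.2%). Because the lists cover 31.0 and 19.1 Mb, the same count per Mb of covered length was 4 (26% of all genes) and 3 (36.2%), with Pbx2 and Pknox1 changing sides and the 3 Meis genes and Pbx3 remaining longer in the control-labelled list. The median difference of the 8 members, BN1 minus control, was -817.5 bp, and that of all protein-coding genes was 0 bp. These medians are not alike, because 37.8% of all genes had a region in neither list and so count as 0 bp. Among the members this held for Pknox2 alone. Of all genes, 9619 were longer in the control-labelled list and 3983 in the BN1-labelled list. The medians therefore do not show a shift particular to the family.

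Of the 12 control regions of the family, 6 overlapped a BN1 peak (50%, exact 95% interval 21.1 to 78.9, counting error only), against 41.2% of all control peaks. Of the 7 BN1 regions 6 did so (85.7%, 42.1 to 99.6), against 62.6% of all BN1 peaks. Both of these intervals, for regions within 10 kb, include the share over all peaks. All of the shared control regions belong to Pbx2, Pbx3 and Pknox1.

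The long members lacked regions deep inside the gene. Meis1, Meis2, Pbx3 and Pknox2 span at least 100 kb, and none of these 4 had a peak more than 5 kb inside both ends in either list, whereas 52.3% of the 2429 protein-coding genes of that length had one in at least 1 list. By list, the share was 44.5% for control and 31.2% for BN1. The length and distance used here were chosen after the values were seen. The smaller Meis2 control peak lies inside the gene but within 5 kb of its upper end, and so was not counted. Of genes this long, 13% had a region within 10 kb in the control-labelled list only, as Meis1 and Meis2 did.

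Farther out, the 100 kb windows held 71 control and 39 BN1 regions, of which 34 in each list were shared. For control this is 47.9% (exact interval 35.9 to 60.1), which includes the 41.2% of all control peaks. For BN1 it is 87.2% (72.6 to 95.7), which lies above the 62.6% of all BN1 peaks. These intervals hold counting error only, and many of the regions lie side by side at the same genes. Meis1 and Meis2 gained no region in either list, so their windows still held control peaks alone, as did those of 4.88% of all genes. The other 6 members then had regions in both lists, as did 73.9% of all genes. The Meis3 window held 24258 bp in 21 control peaks and 12530 bp in 13 BN1 peaks. The strongest of those without a BN1 counterpart is a control peak of 4420 bp with a fold of 30.2 (percentile 97.7), 19.0 kb above Meis3 and inside the span of Dhx34, a helicase gene. A further stretch covers C5ar1, the C5a receptor of myeloid cells, with a control peak of 7315 bp that overlaps a BN1 peak of 2127 bp. The Pbx2 window held 29555 bp in the control-labelled list against 10050 bp in the BN1-labelled list. The greater part of the excess lay in control peaks of 7379, 4840 and 2200 bp at or between Prrt1 and Ppt2. For Pknox2, 11215 against 2494 bp came into the window, all of it at least 60.2 kb from the gene. These distant regions have other genes nearer to them, and no link to the members was measured.

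**Figure D4:**
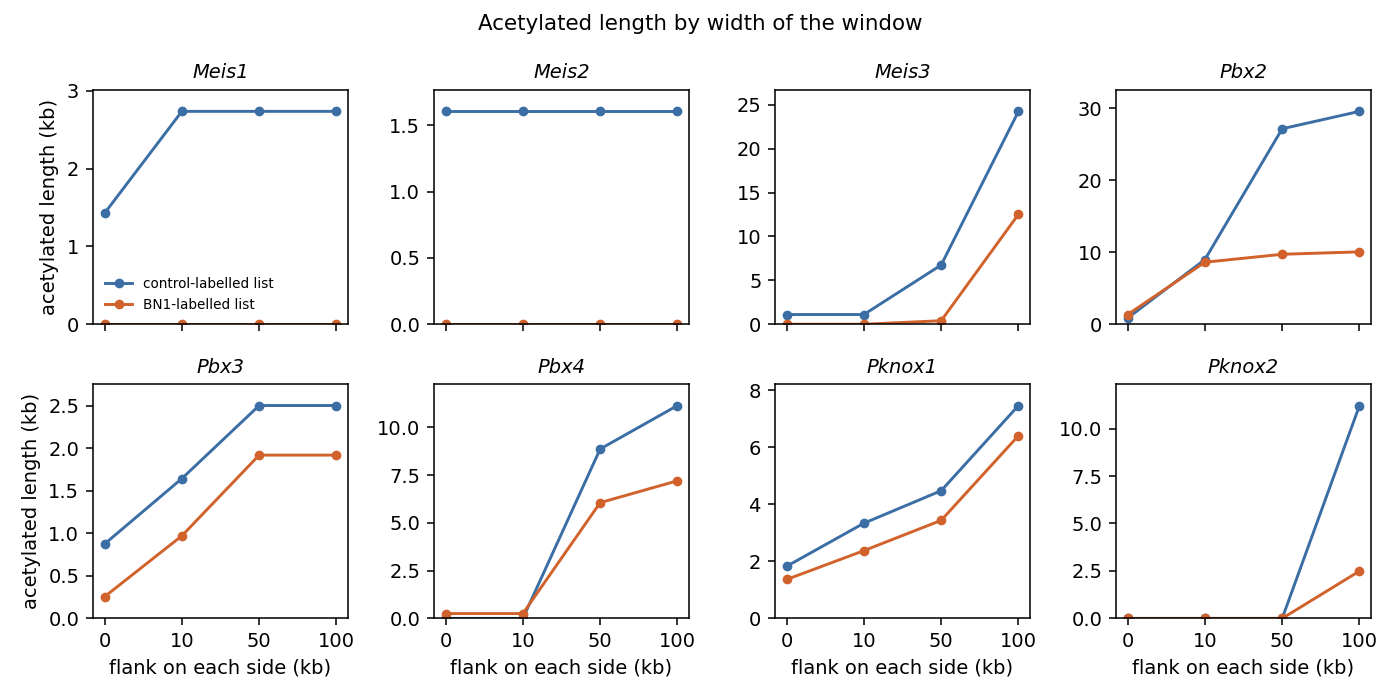
Acetylated length in kb of each gene in windows with 0, 10, 50 and 100 kb added on each side, for the control-labelled list (blue) and the BN1-labelled list (orange), with a vertical scale of its own in each panel. The lines of Meis1 and Meis2 stay at 0 for BN1 out to 100 kb, while those of Meis3, Pbx2, Pbx4 and Pknox2 climb as other genes enter the window.

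The remaining TALE genes, the Irx, Tgif and Mkx genes, had regions at 3 of 9 members. The other 6 had no region (37.8% of all genes), 2 had regions in both lists (50.2%) and 1 in the control-labelled list only (8.15%). Tgif1, a repressor of TGF-beta signalling, had 11572 bp in the control-labelled list and 5241 bp in the BN1-labelled list. Its paralogue Tgif2 had 2812 and 3206 bp, and Irx5 had 785 bp in the control-labelled list alone.

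Among the DNA-binding partners of the family, the 39 Hox genes had regions mainly in the control-labelled list. There were 14 with a region in the control-labelled list only (8.15% of all genes), 6 with regions in both (50.2%), none in the BN1-labelled list only (3.81%) and 19 in neither (37.8%). Genes of a Hox cluster share peaks, so these counts are not separate observations. The summed length over these windows, which overlap within a cluster and count shared peaks more than once, was 62690 bp against 3406 bp. Hoxa3 had 8662 against 300 bp, and Hoxb6, Hoxb7 and Hoxb8 shared 5799 bp against none.

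The MLL and menin machinery, which keeps Hox and Meis1 genes active, was acetylated in both lists. Of 16 genes, 15 had regions in both (50.2% of all genes), and Mllt3, the partner gene of the MLL-AF9 fusion, had none in either. In bp, 8 were longer in the control-labelled list (43.9% of all genes) and 7 in the BN1-labelled list (18.2%), and per Mb 5 (26%) and 10 (36.2%). Kmt2a, which encodes MLL itself, had 2639 and 2771 bp, and Men1, which encodes menin, had 1267 and 1859 bp. The largest differences were at Mllt6 (7548 against 873 bp), longer in the control-labelled list, and Cdk9, a kinase of transcription elongation (6091 against 10387 bp), longer in the BN1-labelled list. A list of 9 genes whose products act with PBX proteins had regions in both lists at 8 (50.2% of all genes). In bp, 4 of this list were longer in the control-labelled list (43.9% of all genes) and 4 in the BN1-labelled list (18.2%). Per Mb, these counts were 3 (26%) and 5 (36.2%). Of this list, Hipk2, a kinase, had the largest difference (12256 against 2214 bp), longer in the control-labelled list. The next largest was at Smad3, a mediator of TGF-beta signalling (4010 against 11729 bp), longer in the BN1-labelled list.

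All of the 16 genes listed as targets of Hox and Meis1 had a region in at least 1 list. Cd34 was the 1 gene with a region in the control-labelled list alone (1601 bp; 8.15% of all genes), while 5 had one in the BN1-labelled list alone (3.81%) and 10 in both (50.2%). The 5 are Erg (15215 bp), Sox4 (4907 bp), Myb (3835 bp), Trib2 (2404 bp) and Hlf (266 bp), all transcription factors except Trib2, a pseudokinase. Flt3, a receptor of early progenitors, had 1341 bp in the control-labelled list and 3987 bp in the BN1-labelled list. In the other direction, Bcl2, a survival factor, had 13503 against 1203 bp, Id2 had 6531 against 435 bp and Bmi1 had 7352 against 2307 bp. In all, 7 of the 16 were longer in the control-labelled list and 9 in the BN1-labelled list (43.9% and 18.2% of all genes), and per Mb 4 and 12 (26% and 36.2%). These counts were not tested.

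**Figure D5:**
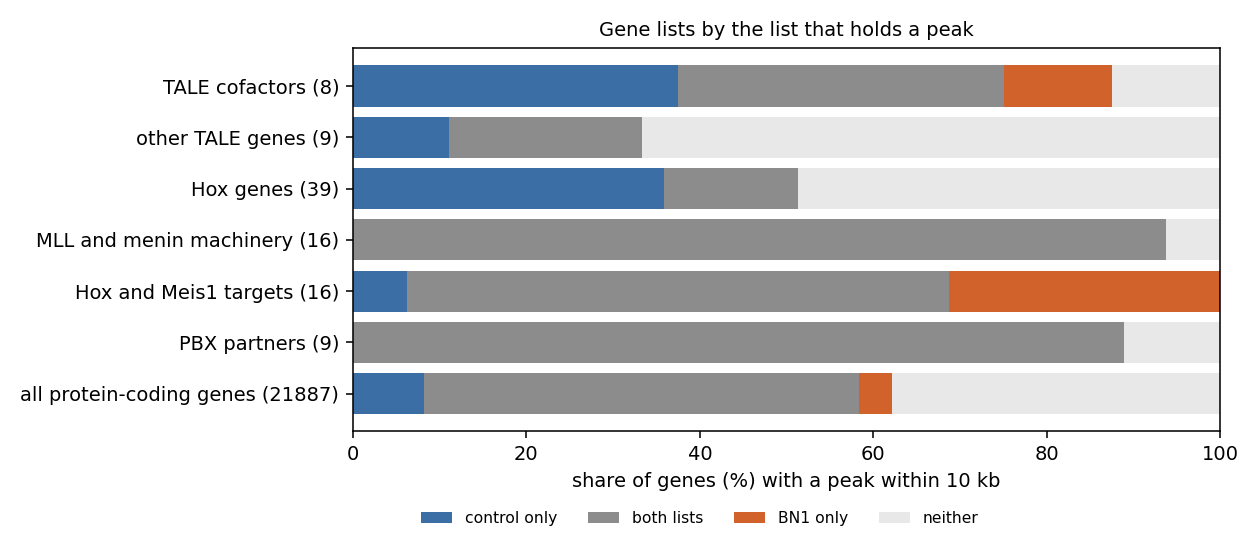
Share of genes in percent by which list holds a peak within 10 kb, for the 8 TALE cofactors, the 5 related gene lists and all 21887 protein-coding genes, with the number of genes in parentheses. The TALE cofactors and the Hox genes have the widest blue parts (control only, 3 of 8 and 14 of 39), and the targets of Hox and Meis1 the widest orange part (BN1 only, 5 of 16).

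Marker genes of some blood cell types also differed in length between the lists. The pan-leukocyte gene Ptprc and the myeloid factor Spi1 had regions in both lists. Of 4 progenitor markers, Kit, the gene of the sorting marker, and Gata2 were at 0 in both lists, Cd34 had a region in the control-labelled list only and Flt3 in both. The 4 together covered 2942 bp in the control-labelled list and 3987 bp in the BN1-labelled list. All of the 5 monocyte and macrophage markers were longer in the control-labelled list (27228 against 3080 bp summed), with Adgre1 and Cx3cr1 at 0 in the BN1-labelled list. All of the 5 neutrophil markers (508 against 29443 bp) and all of the 4 B cell markers (1314 against 24492 bp) were longer in the BN1-labelled list. S100a9, Ngp, Ltf, Cxcr2, Cd79b, Pax5 and Ebf1 were at 0 in the control-labelled list. Of all protein-coding genes, 43.9% were longer in the control-labelled list and 18.2% in the BN1-labelled list, and per Mb 26% and 36.2%. Erythroid markers covered 4530 and 6466 bp, T cell markers 3692 and 5178 bp, megakaryocyte markers 3075 and 1834 bp, and markers of stroma and endothelium 1386 and 1514 bp. In a bulk library, fewer cells of a type and less acetylation per cell cannot be told apart, and the part of these cell types in the Meis result was not tested. The directions of the marker genes also rest on the sample titles, which the peak names go against, and would turn if the lists were exchanged.

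By the plain pair of lengths, the genes most like Meis1 were Cyb561 (2738 and 0 bp), Treml1 (2735 and 0 bp) and Lpl (2734 and 0 bp), which lay within 1, 2 and 3 bp of it in the sum of the 2 differences. This likeness rests on 2 libraries and on length alone.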

How the data were processed

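H3K27ac ChIP-seq peak lists, 1 per ChIP library, were the deposited data used; the 2 input libraries were not analysed here. Bowtie2 2.5.4, Picard 3.2.0, deepTools 3.5.1, MACS3 3.0.1 and mm10 (GRCm38) appear in the submitters' processing notes without their roles. Input use, pooling and the calling threshold are not given there. The deposited columns are the authors' fold enrichment (a linear ratio), −log10 p, −log10 q and a score. The authors' score equals 10 times the −log10 q to within 1 unit in 100% of peaks, and neither it nor the −log10 p was used. A fold is the peak's own value and ranks peaks within its list only. The lowest deposited −log10 q was 1.32 (control) and 1.30 (BN1). Read depth cannot be known from peak lists and limits which weak regions were called.

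Groups came from the sample titles. Peaks did not overlap within a list. Lengths are bp covered inside a window, and peaks were shared if they overlapped by at least 1 bp. Genes and promoters came from RefSeq GRCm38.p6. Promoter strand was checked on 1670 overlapping pairs of opposite strand, and 1670 matched as reverse complements. Members and lists were chosen with earlier results of these data known. Values of 2 listed genes are not reported here. Text names all members, some genes of the lists by difference in bp, by which list holds a region or by role, and the 3 genes nearest to Meis1. Genes named by region or by role were chosen after their values were seen. No test across samples was possible with 1 library per group. Intervals are exact (Clopper-Pearson). The code was tested on simulated data. Python 3.11.15, numpy 2.4.6, pandas 2.3.3, scipy 1.17.1 and matplotlib 3.10.9 were used.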

Additional observations from a re-analysis of the deposited data

How the results depend on the processing

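The 3 Meis genes were the members with a region in the control-labelled list alone at −log10 q minimums of 5 and 10, with lists of equal length, without flanks, and (a setting chosen after seeing the data) within 1 kb of either gene end. With the top 10000 peaks of each list, Meis3 alone was left (1 gene), and Meis1 and Meis2 had no region in either list. In that setting 3 members (Meis3, Pknox1 and Pbx2) were longer in the control-labelled list. With flanks of 50 kb and of 100 kb, Meis1 and Meis2 were left (2 genes). Members longer in the control-labelled list then numbered 7 and 8. The share of all genes longer in that list was not counted for these flanks or for the top 10000 peaks. In full, the control-labelled list covers more, 31.0 against 19.1 Mb, so these counts are not a result about the family. Members longer in the BN1-labelled list numbered 0 at a −log10 q minimum of 10 and with flanks of 50 and 100 kb, 2 without flanks and 3 per Mb of covered length. With the top 10000 peaks Pbx3 took the place of Pbx4 as the 1 member with a region in the BN1-labelled list alone. Members of that kind numbered 0 at a −log10 q minimum of 10 and with flanks of 50 and 100 kb. At a −log10 q of at least 10, 100% of the 6 remaining BN1 regions were shared. Differences (BN1 minus control) turned for Pbx3 with the top 10000 peaks (971 bp), for Pbx2 without flanks (486 bp) and per Mb (160.8 bp per Mb), for Pknox1 per Mb (16.7 bp per Mb), and for Pbx4 with flanks of 50 kb (-2807 bp) and 100 kb (-3937 bp), where other genes entered the window. No paired analysis was possible because there was 1 library per group and the result comes from no test.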
